A study of Mus musculus with 2 samples.

Results

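Sox2 and Pou5f1 are the genes of 2 transcription factors, SOX2 and OCT4, and 5-hydroxymethylcytosine (5hmC) was described here across both loci in mouse embryonic stem cells. The regions were set by position in the mm9 build. They were chosen with earlier results of these data known. The Sox2 region ran on chromosome 3 from 34540001 to 34670000 and held the gene (34548927 to 34551382) and its distal control region (34653001 to 34660500, edges approximate). The Pou5f1 region ran on chromosome 17 from 35630001 to 35660000, with the gene at 35642977 to 35647722. Together they held 1939 of the 13025343 cytosines listed in the deposited table, 1662 in the Sox2 region and 277 in the Pou5f1 region. The samples were 2 libraries of 1 group, both from genomic DNA of E14 cells at passage 12. E14 is an established mouse embryonic stem cell line, and no treated, mutant or differentiated sample was compared. The deposited table gave 1 read count per listed cytosine for both libraries together, so no value below has a replicate error and no test between samples was possible. In all, the read counts of the table summed to 176006227, with a median of 9 per listed cytosine. Some reads may be counted on 2 cytosines, as described below for the paired classes.

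5hmC is made from 5-methylcytosine by the TET enzymes, an early step on a path that can lead back to unmodified cytosine. Embryonic stem cells carry much of it compared with most cultured cells. In the assay, 5hmC was glucosylated and the DNA was cut near it by the endonuclease AbaSI, so that reads start at a fixed distance from a modified cytosine. A cytosine that is not in the table may be unmodified, may carry 5-methylcytosine, or may have been missed, and is not a measured 0. SOX2 and OCT4 bind DNA together at many enhancers of stem cells and keep these cells pluripotent. Transcription of Sox2 in mouse embryonic stem cells depends on the distal control region, a group of enhancers far downstream of the gene. Pou5f1 is controlled by a proximal and a distal enhancer, both within a few kilobases upstream of the gene.

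The promoters are shown first because both lie inside the empty stretches described below. Both contain CG dinucleotides, the usual site of methylation. The sequences are the 250 bases before each gene start, plus strand, from RefSeq on the GRCm38.p6 build, with each CG in capitals. They are not positions of mm9 and were matched to the genes by symbol, for 2 of 2 genes.
Sox2 promoter (chr3:34649745-34649994, GRCm38.p6): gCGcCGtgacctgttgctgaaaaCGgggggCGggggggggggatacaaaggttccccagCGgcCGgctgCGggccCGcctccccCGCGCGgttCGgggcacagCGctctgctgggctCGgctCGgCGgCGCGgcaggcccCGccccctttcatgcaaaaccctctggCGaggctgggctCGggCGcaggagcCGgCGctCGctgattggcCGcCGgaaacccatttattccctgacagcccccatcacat
Pou5f1 promoter (chr17:35505782-35506031, GRCm38.p6): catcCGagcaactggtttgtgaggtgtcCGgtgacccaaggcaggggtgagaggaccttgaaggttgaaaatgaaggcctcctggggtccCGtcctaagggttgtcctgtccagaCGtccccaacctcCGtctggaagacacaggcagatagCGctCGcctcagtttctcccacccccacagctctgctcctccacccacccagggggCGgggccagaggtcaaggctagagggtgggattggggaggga
The Sox2 promoter held 27 CG dinucleotides and 72.0% G and C. Of 32851 RefSeq promoters of the same length, 8.56% held as many CG, and the median was 6. The Pou5f1 promoter held 8 CG dinucleotides and 62.0% G and C, and 43.0% of promoters held as many. CG reads the same on both strands, and 92.1% of promoters held at least 1. Over the 250 bases before the gene start in mm9, the table listed 0 cytosines at Sox2 and 0 at Pou5f1. Windows of that length are often empty. Of those in the flanks of Sox2 39.7% held no listed cytosine, and 62.2% on chromosome 3. The shares were 31.6% in the flanks of Pou5f1 and 53.9% on chromosome 17. These shares cover windows of any CG content and are not matched to the 27 and 8 CG of the promoters. The 0 at each promoter is therefore not read as a result, and the longer stretches around the genes are given below.

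On a wide scale the 2 loci lay in unlike surroundings. Each was compared with the 500 kb on either side of its region, called the flanks. The flanks of Sox2 had a mean of 99.7 reads and 7.60 listed cytosines per kb, against 50.04 reads per kb over all of chromosome 3. The upstream flank had 79.2 reads per kb and the downstream flank 120.3. The Sox2 region had 215 reads and 12.8 listed cytosines per kb, 2.16 times the flank reads (95% interval 2.13 to 2.19). Intervals here are exact binomial and cover counting error only. Those on reads treat each read as independent, which PCR copies are not, so they are likely too narrow. In bins of 10 kb, 13 of 13 in the Sox2 region were above the flank median of 76.75 reads per kb. The higher level was not confined to the region. The adjoining flank bins had 216.5 reads per kb upstream and 216.6 downstream. Of the 100 flank bins, 14 were above 200 reads per kb, against 9 of the 13 in the region. The region bin with the most, from 34590001 to 34600000, reached 364 reads per kb, and 0 of the 100 flank bins reached that level.

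The Pou5f1 region was below its flanks, with 115 against 173 reads per kb, a ratio of 0.664 (0.642 to 0.687). Its flanks were less even along their length than the means of both sides (170 upstream and 176 downstream) show. The 200 kb next to the region, a distance chosen after the values were seen, had 61.8 reads per kb upstream and 198 downstream. The upstream side also had fewer listed cytosines, 4.86 against 13.1 per kb. Of its 200 bins of 1 kb, 58 had none, against 3 downstream. In RefSeq on GRCm38.p6, H2-Q10, a class I histocompatibility gene, is the nearest protein-coding gene upstream of Pou5f1, and Tcf19 is the next gene downstream. How well reads map to either side was not tested. By these averages over 200 kb, Pou5f1 sat between a side with few listed cytosines and a side with many. Some 10 kb bins on each side went the other way. The bin from 35560001 upstream had 299.9 reads per kb, and the bin from 35740001 downstream had 41.4.

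**Figure D1:**
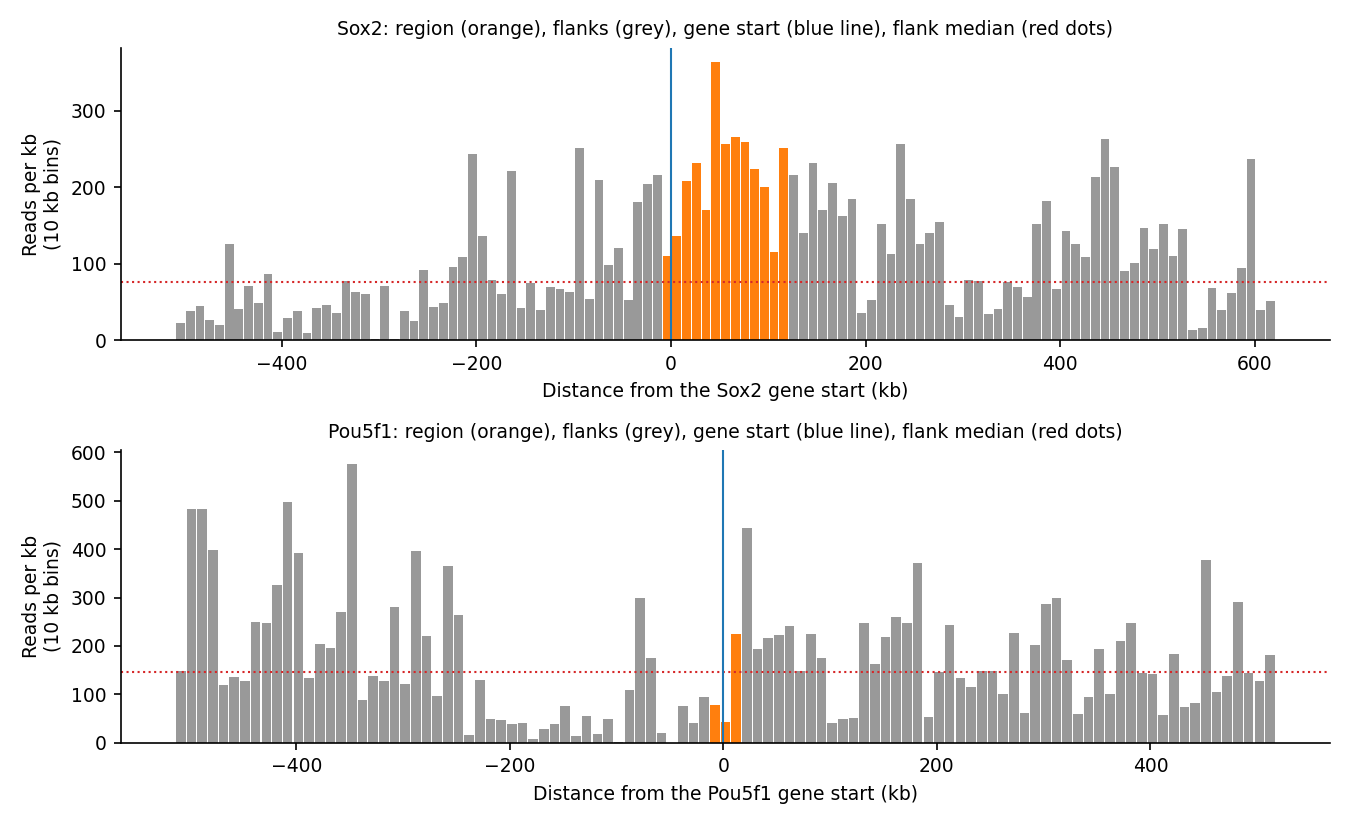
Reads per kb in 10 kb bins (bars) against distance from the gene start in kb, for the regions (orange) and the 500 kb flanks (grey), with the flank median as a dotted line. The 13 Sox2 bins all stand above their flank median of 76.75 reads per kb, while the Pou5f1 gene start lies where low bins upstream meet higher bins downstream.

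The Sox2 gene, which has a single exon and lies within the long non-coding RNA gene Sox2ot, held 0 listed cytosines over its 2456 bases. At the mean density of the flanks, a stretch of that length would hold 18.7 listed cytosines and 245 reads. All 4 of the 1 kb bins that touch the gene were empty, as were the bin before them and the bin after. The stretch without a listed cytosine ran from 34546919 to 34553846, which is 6928 bases. It began 2.01 kb before the gene start and ended 2.46 kb after the gene end. The flanks held 2 stretches at least as long among 7601, the longest of 8510 bases. On chromosome 3 as a whole, 99.8% of the stretches between neighbouring listed cytosines were shorter. Their median was only 43 bases, and 1354 were at least as long.

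Empty stretches of gene length were uncommon but present in the Sox2 flanks. Of 406 tiles of 2456 bases, 10 held no listed cytosine (2.46%). In 1 kb bins, the share without a listed cytosine was 9.70% in the flanks and 31.8% over chromosome 3. Beside these shares, 9 of the 130 bins of the Sox2 region were empty (6.92%, interval 3.21 to 12.7). That interval covers the flank share, and 6 of the 9 empty bins lay side by side at the gene.

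The edges of the empty stretch at Sox2 were gradual in reads. Upstream, the bin from 34546001 to 34547000 held 5 cytosines with 25 reads, and the bin before it was empty. The 3 kb upstream of the gene had 8.33 reads per kb, 12.0 times below the flanks (8.11 to 18.5). Farther out, the bin from 34542001 to 34543000 held 25 cytosines and 580 reads, more than 99.7% of the flank bins. Downstream, the bins from 34553001 and from 34554001 each held 2 cytosines with 8 reads. The next bins held 77, 282 and 459 reads. The bin with 459 reads was above 97.6% of the flank bins. The enhancers known to lie close to Sox2 on both sides were not placed, since their mm9 positions were not used here.

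**Figure D2:**
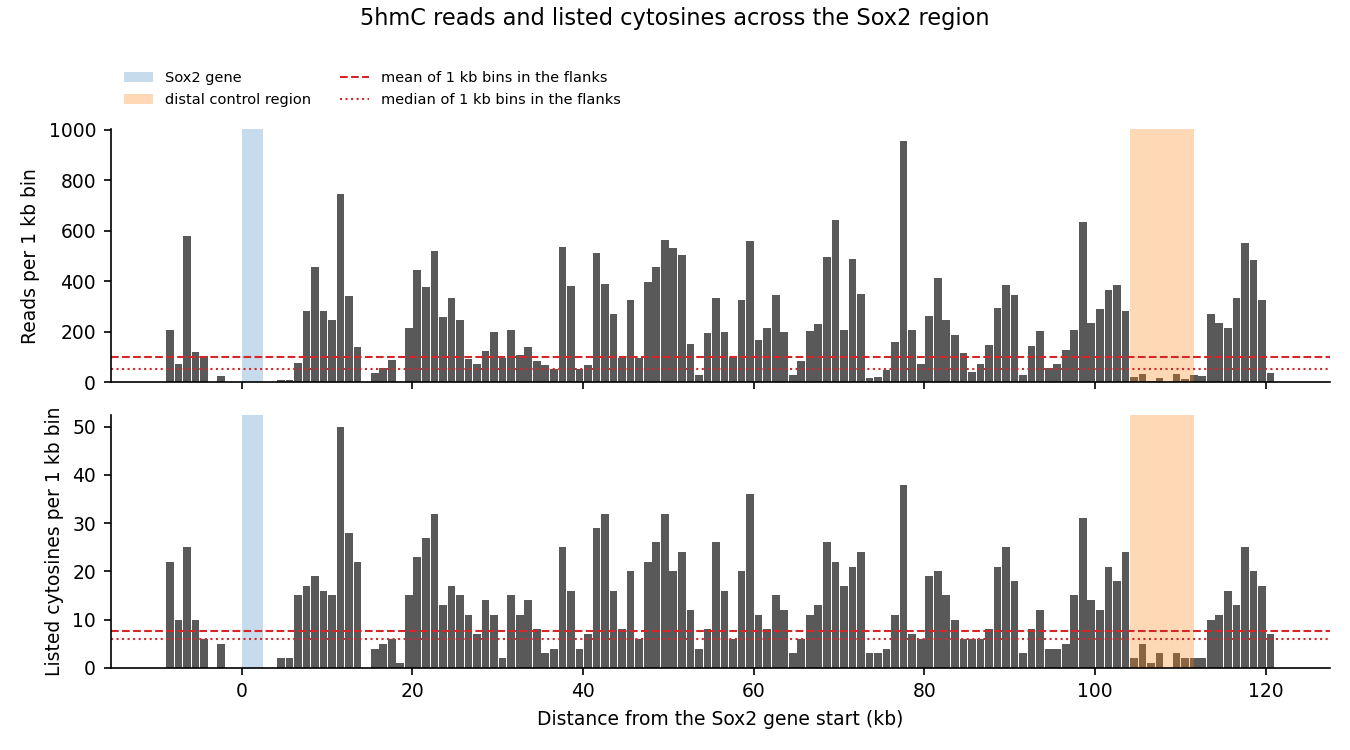
Reads (top) and listed cytosines (bottom) per 1 kb bin against distance from the Sox2 gene start in kb, with the gene in blue, the distal control region in orange, and the mean (dashed) and median (dotted) of flank bins. Bins at the gene hold 0 reads and bins touching the control region at most 35, while the interval between them reaches 955.

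The 101618 bases between the Sox2 gene and the control region make up most of the length of the region. They held 1445 listed cytosines and 24215 reads, or 238 reads per kb, 2.39 times the flanks (2.36 to 2.42). This mean was 4.63 times the median flank bin of 51.5 reads, which itself lies below the flank mean of 99.7. The 9500 bases after the control region were at a like level, with 265 reads per kb, 2.65 times the flanks (2.55 to 2.76). Of the 101 full 1 kb bins between the gene and the control region, 53 had at least 2 times the flank mean, against 17.5% of the flank bins. At most 1/2 of the flank mean (49.9 reads) was found in 12 of them, against 48.8% of flank bins. The quartiles of reads per bin were 84.0, 207 and 348, and 2 bins were empty. The 8 flank tiles as long as the interval between gene and control region were all lower. Against the nearer 250 kb on each side, the ratio of this interval was 2.01.

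Within this interval the reads were spread over many cytosines. The bin with the most reads in the Sox2 region ran from 34626001 to 34627000 and held 955 reads on 38 cytosines, 9.58 times the flank mean. The second, from 34560001 to 34561000, held 746 reads on 50 cytosines, and the third, from 34618001 to 34619000, held 643 on 22. The first 2 were above every one of the 1000 flank bins, and 2 flank bins reached the third. The cytosine with the most reads was the plus-strand CG at 34626667, with 143. A minus-strand CG 21 bases away, at 34626688, had 131 reads, and one at 34618118 had 111. The other two lay beyond the control region, a plus-strand CG at 34662186 and a minus-strand CG at 34662208, with 105 reads each. They were of the class 2CG, whose members mostly come in pairs with the same count, so they may stand for 1 set of reads. The CG at 34626688 was of this class too. Whether its reads are also counted on another cytosine was not tested.

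The distal control region was a second low zone of the Sox2 locus. Its 7500 bases held 16 listed cytosines and 125 reads, or 16.7 reads per kb. That is 5.98 times below the flanks (5.02 to 7.19) and 14.3 times below the interval before it (12.0 to 17.2). The size of the difference from the flanks depends on the edges, which are approximate, and on the measure. It was 3.03 times with edges wider by 500 bp, 3.09 times against the median flank bin and 3.56 times with each cytosine counted once. It was 5.19 times with edges narrower by 500 bp, 7.11 times against flanks of 250 kb and 8.73 times with at least 10 reads. The value of 3.09 sets a mean against a median. The fall was abrupt. The 5 kb before the control region had 313 reads per kb, more than 97.5% of flank tiles of 5 kb, and the 5 kb after it had 198, more than 85.5%. The last bin before it, from 34652001, held 24 cytosines and 284 reads. The first bin inside held 2 cytosines and 22 reads.

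All 8 of the 1 kb bins that touch the control region were low, with 22, 35, 4, 18, 0, 34, 12 and 31 reads in order. The bin after them, from 34661001, held 24 reads, and the next held 270. The low zone was thus 9 bins long and reached past the approximate end of the control region. The bin with 270 reads holds the 2CG cytosines at 34662186 and 34662208, with 105 reads each, which may stand for 1 set of reads. They also count towards the 5 kb after the control region. Low bins are common around Sox2, since 48.8% of flank bins had at most 1/2 of the flank mean. The flanks held 9 runs of at least 9 such bins among 168 runs, and the longest had 17. Of the 132 flank tiles of 7.5 kb, 5 had as few reads as the control region or fewer (3.79%). Inside the locus the contrast was larger. The 13 tiles of 7.5 kb laid from the gene end towards the control region ranged from 137 to 362 reads per kb with a median of 229, so all lay above the 16.7 of the control region.

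The low reads of the control region came from fewer listed cytosines and from fewer reads on each. It had 2.13 listed cytosines per kb against 14.2 in the interval before it, a 6.67-fold difference (4.09 to 11.7). The mean was 7.81 reads per listed cytosine against 16.8, a 2.15-fold difference, and the flanks had 13.1. The number of CG dinucleotides in either interval was not counted, as no mm9 sequence was used, so its part in the first of these differences was not tested. Reads per listed cytosine also depend on the authors' minimum for listing, which is not known.

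The single cytosines of the control region show how thin the signal was. Of the 16, 13 were CG, and 5 had at least 10 reads. A CG at 34653933 on the plus strand had 10 reads and its partner on the minus strand, at 34653934, had 12. The next listed CG was also on both strands, at 34654027 with 6 reads and 34654028 with 4. These were the 2 dyads listed on both strands among 11 (18.2%, interval 2.28 to 51.8). The cytosine with the most reads was the CG at 34658368, with 20. A CT at 34658013 and a CA at 34658034 on opposite strands had 7 reads each and belonged to the paired class 2CH. The first 2.11 kb held 8 of the 16 cytosines. The longest stretch without one was 1212 bases, from 34655113 to 34656324. Both the Sox2 gene and the control region were low, but the gene held no listed cytosine and the control region a few weak ones.

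**Figure D3:**
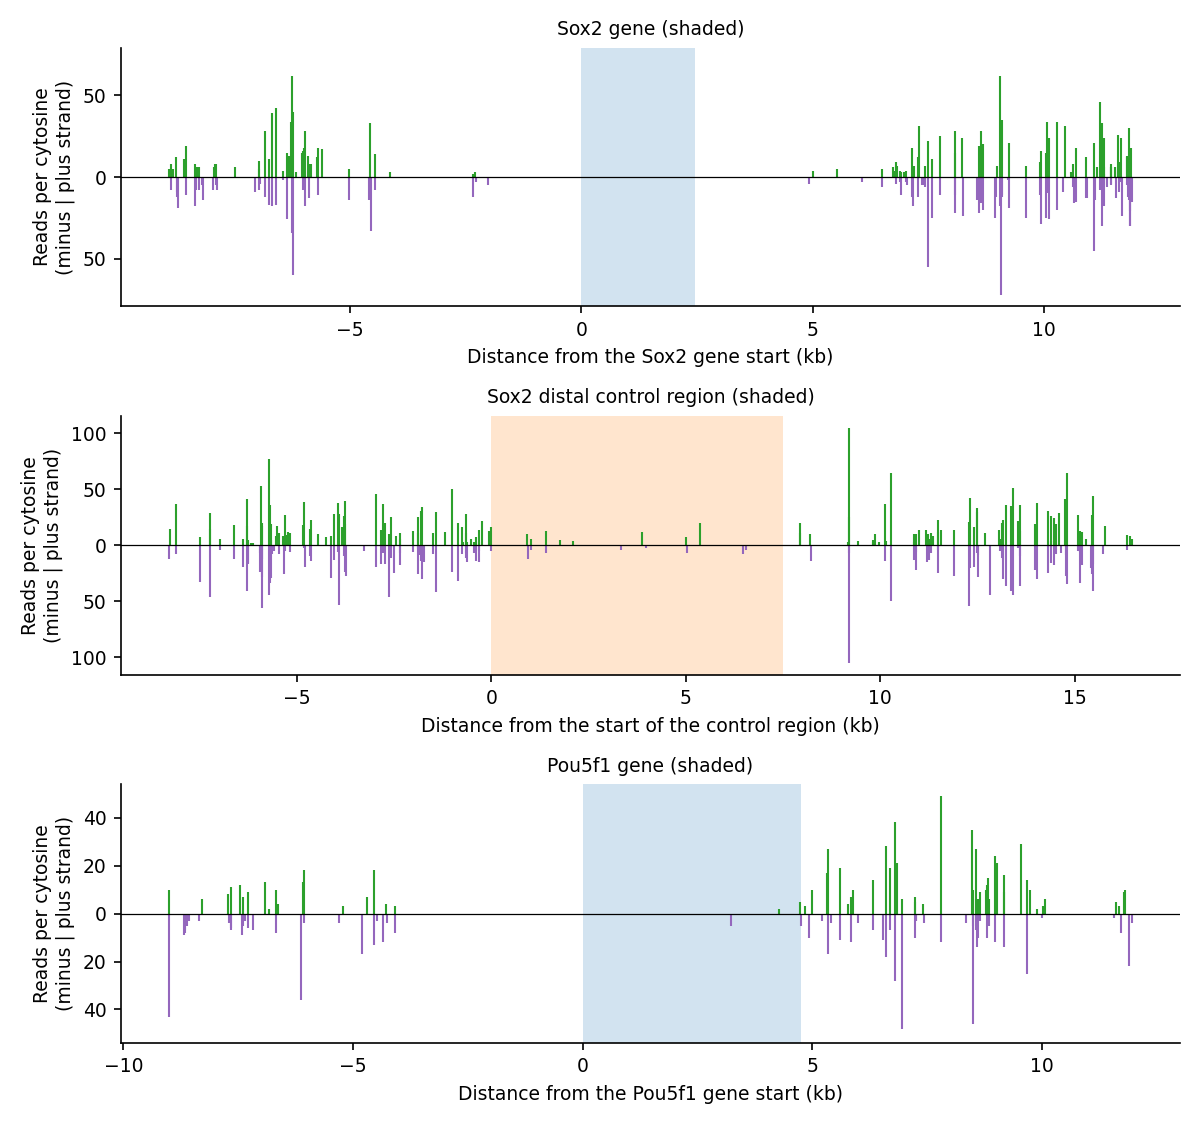
Reads of each listed cytosine (vertical lines, plus strand up and minus strand down) around the Sox2 gene, the Sox2 distal control region and the Pou5f1 gene, against distance in kb from the start of each shaded interval. The Sox2 gene has no line, the control region has 16 with at most 20 reads, and the Pou5f1 gene has 3 near its end.

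The Pou5f1 gene held 3 listed cytosines and 12 reads over 4746 bases, or 2.53 reads per kb. That is 68.5 times below the flanks (39.2 to 133), or a ratio of 0.0146, against 0.0548 with each cytosine counted once and 0 with a minimum of 10 reads. At the flank density, 54.7 cytosines and 822 reads would lie in such a stretch. All 3 were in the last part of the gene. A minus-strand CG at 35646200, 3.22 kb after the gene start, had 5 reads, a plus-strand CG at 35647257 had 2, and a CA at 35647707, 15 bases before the gene end, had 5. The CA was of the paired class 2CH. A minus-strand cytosine just beyond the gene end, 4.753 kb after the gene start, also had 5 reads. Whether both stand for 1 set of reads, which may then belong outside the gene, was not tested. The exons holding the 3 cytosines were not named, since no mm9 gene models were used.

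The 3 kb upstream of Pou5f1, where its proximal and distal enhancers lie, held 0 listed cytosines. The flank density would give 34.6 cytosines and 519.6 reads there. The empty stretch ran from 35638897 to 35646199, which is 7303 bases, from 4.08 kb before the gene start to 3.22 kb after it. It covered 7 whole bins of 1 kb. Among 11524 stretches in the flanks, 2 were as long or longer, the longest of 12609 bases, and 99.9% of those on chromosome 17 were shorter. The median on chromosome 17 was only 30 bases, and 610 stretches there were at least as long. Of the 332 flank tiles of 3 kb, 10 were empty (3.01%), and of the 210 tiles of gene length, 7 had as few reads as the gene (3.33%).

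The low tiles around Pou5f1 lay mostly on its upstream side. In the 200 kb upstream, 8 of 66 tiles of 3 kb were empty, and 5 of 42 tiles of gene length had as few reads as the gene. In the 200 kb downstream, the counts were 0 of 66 and 0 of 42. The longest stretch without a listed cytosine was 12609 bases upstream and 1753 downstream. Tiles as empty as the Pou5f1 gene and its upstream part were thus found on the upstream side and, within 200 kb, not on the other.

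Signal returned at the end of Pou5f1. The bin from 35646001 held 5 reads and the bin from 35647001, which holds the gene end, held 35. The next bins held 135 and 245. The 3 kb downstream had 148 reads per kb, 0.854 times the flanks (0.777 to 0.938), and 11.7 listed cytosines per kb against 11.5 in the flanks. The whole part of the region downstream of the gene, these 3 kb included, had 216 reads per kb, 1.25 times the flanks (1.20 to 1.30), and 67.5% of flank tiles of that length were at or below it. Without the 3 kb it had 238 reads per kb. On the other side, the 12976 bases upstream of the gene had 60.4 reads per kb, close to the 61.8 of the adjoining 200 kb.

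**Figure D4:**
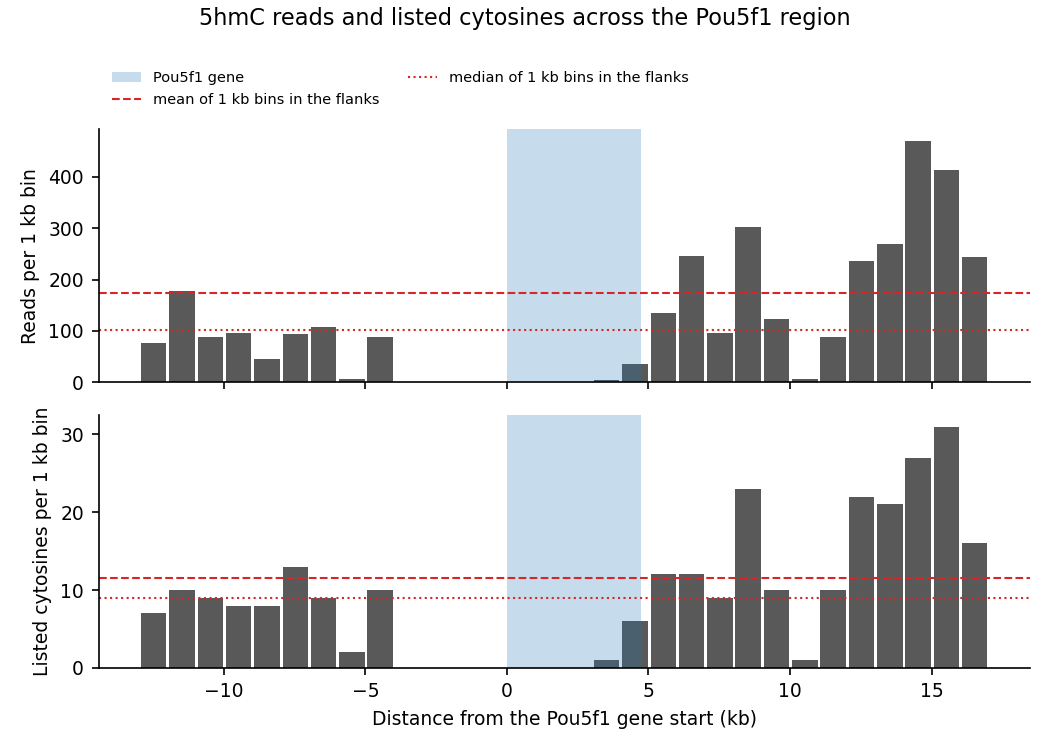
Reads (top) and listed cytosines (bottom) per 1 kb bin against distance from the Pou5f1 gene start in kb, with the gene in blue and the mean (dashed) and median (dotted) of flank bins. The 7 adjoining empty bins begin upstream of the gene and end inside it, and the bins with the most reads lie downstream.

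Of the 30 bins of the Pou5f1 region, 7 were empty (23.3%, interval 9.93 to 42.3), against 9.60% of its flank bins and 26.5% of those on chromosome 17. The 7 empty bins were 1 run. At most 1/2 of the flank mean (86.6 reads) was found in 13 of 30 bins, close to the 45.3% of flank bins. At least 2 times the flank mean was found in 2 of 30, against 16.0%. The bin with the most reads, from 35657001 to 35658000, held 469 reads on 27 cytosines, 2.71 times the flank mean, and 86 of the 1000 flank bins reached it. The bins from 35658001 and 35651001 followed with 414 and 302 reads. The cytosine with the most reads was a minus-strand CG at 35657337 with 64. Then came 35650782 with 49 reads, 35649937 with 48, 35651470 with 46 and, upstream of the gene, 35633979 with 43. The highest bins and cytosines of this region thus had fewer reads than those at Sox2. These maxima come from sets of unlike size, 30 bins here against 130 and 277 listed cytosines against 1662. The flank means differ too, so the loci are not ranked by these maxima.

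**Figure D5:**
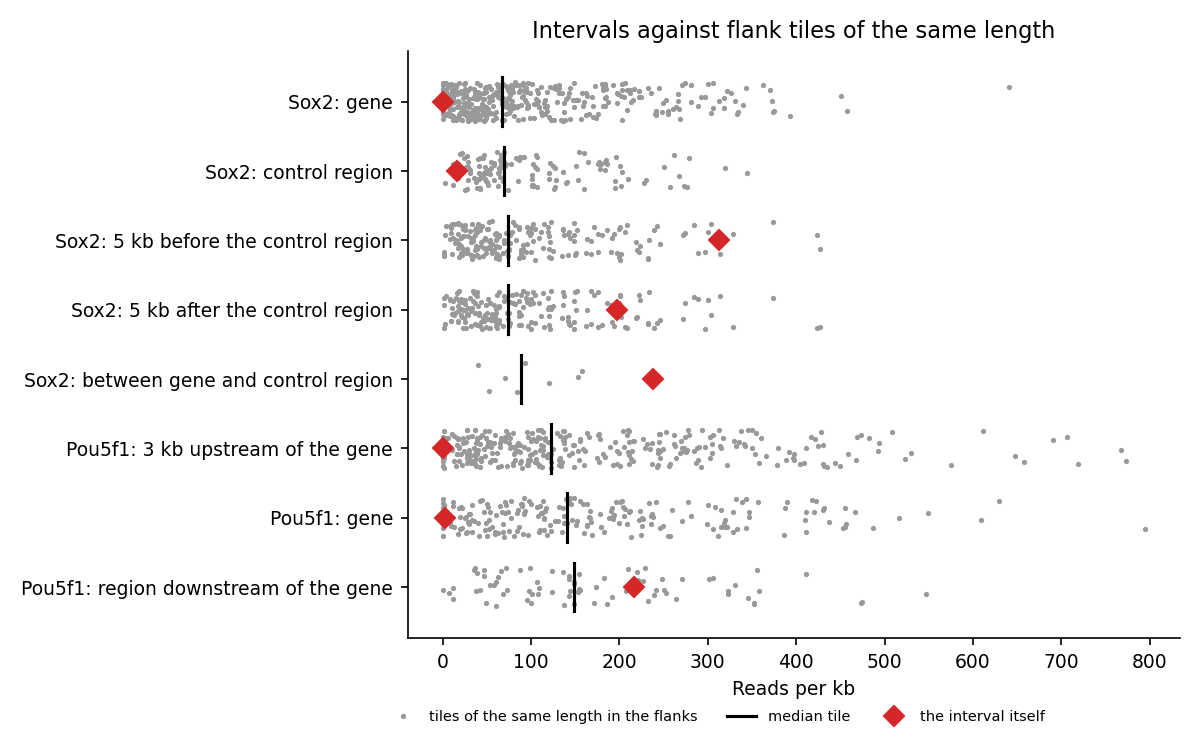
Reads per kb of each named interval (red diamonds) beside all tiles of the same length in its flanks (grey points) and their median (black line). Both genes, the Pou5f1 upstream part and the Sox2 control region sit at the low end, at 0 to 16.7 reads per kb, while the interval between the Sox2 gene and its control region lies above its 8 tiles.

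The 2 strands of each CG were compared next. A dyad is a CG with the cytosine of each strand. In the Sox2 region 553 of 1055 dyads with a listed cytosine were listed on both strands, or 52.4% (49.4 to 55.5). In its flanks the share was 38.01% (36.7 to 39.3) and on chromosome 3 33.7%. Reads per listed cytosine moved with it, with a median of 13 in the region and 9 in the flanks, and the part of depth in this share was not tested. In the Pou5f1 region 80 of 191 dyads were listed on both strands, 41.9% (34.8 to 49.2), and the interval covers the 45.6% of its flanks. There the median was 10 reads against 11. The 2 CG listed in the Pou5f1 gene lay in 2 dyads, and 0 of them had both strands listed.

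Strand and sequence context were described last. Plus-strand cytosines made up 51.0% in the Sox2 region (48.6 to 53.5) and 47.7% in the Pou5f1 region (41.6 to 53.7). Cytosines outside CG made up 3.25% of those in the Sox2 region (2.45 to 4.22), against 2.81% in its flanks and 5.71% on chromosome 3. In the Pou5f1 region they made up 2.17% (0.799 to 4.65), against 4.07% in its flanks. For both regions the counting interval covers the flank share.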

How the data were processed

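Genomic DNA of E14 cells (100 ng per library, passage 12) was glucosylated, cut with AbaSI, sheared to about 300 bp and amplified for 16 cycles, per the labels' protocols. CASAVA 1.8.2, Bowtie and the mm9 build were used, per the submitters' processing notes. The sources used here do not state read filters, how reads were assigned to cytosines or how the 2 libraries were joined. The authors deposited raw counts of reads, 1 for each listed cytosine, in 1 column that pools both libraries. The lowest listed count was 2. Whether the libraries came from separate cultures is not stated.

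The position columns differ by 1 on every line and were read as a 0-based start and its end, so positions are given 1-based, from the end column. Reads and cytosines were summed per 1 kb bin, per interval and per flank tile of the same length, with Python 3.11.15, numpy 2.4.6, pandas 2.3.3 and scipy 1.17.1. A ratio is reads per kb over the mean reads per kb of the flanks. Intervals are 95% exact binomial. An interval without a listed cytosine gets no fold. The functions were tested on simulated sites.

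Every bin touching a gene or the control region was described, with the 3 bins and 5 cytosines with the most reads and the longest empty stretch per region. The regions and intervals were chosen with earlier results of these data known. Alternatives were a minimum of 10 reads, each cytosine counted once, a weight of 0.5 for the paired classes, 250 kb flanks, bins of 2 kb and no 2CG cytosines. Other pluripotency genes were not analysed here, since no mm9 gene models were used.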

Additional observations from a re-analysis of the deposited data

How the results depend on the processing

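Over 9 results and 37 alternatives, 22 values stayed within the main value's counting interval, 15 moved beyond it and 0 reversed. The Sox2 gene and the 3 kb upstream of Pou5f1 hold no listed cytosine, so all alternatives run on them could only give 0. Those values are among the 22 and do not show robustness. For the control region, the ratio to the flanks of 0.167 became 0.115 with at least 10 reads, 0.281 with each cytosine counted once, 0.324 against the median flank bin and 0.3303 with edges wider by 500 bp, which take in the denser bases beside it. For the interval between gene and control region, the ratio of 2.39 became 2.68 with at least 10 reads, 1.87 with each cytosine counted once, 2.47 with the paired classes at a weight of 0.5, 2.01 with flanks of 250 kb, and 4.63 against the median flank bin. For the Pou5f1 gene, 0.0146 became 0 with at least 10 reads, which none of its 3 cytosines has, and 0.0548 with each counted once. With at least 10 reads, the Sox2 share of empty bins was 13.1% (28.7% in its flanks), and dyads listed on both strands fell to 39.7% at Sox2 and 27.9% at Pou5f1, against 26.3% and 32.7% in their flanks at the same minimum. Bins of 2 kb gave an empty share of 3.08% at Sox2. The flank share at that bin size is not given, so this value is not compared. The median of flank bins, the shifted edges and the shifted grid were chosen after seeing the data. Ratios to the median flank bin set a mean against a median. Except where stated, the cause was not tested. No paired analysis was possible because the table pools the 2 libraries, which also allowed no fit without a replicate. Depth limits what an unlisted cytosine can mean, since the authors' minimum for listing is unknown.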
